A study of Mus musculus with 12 samples.

Results

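Transcripts of 10 interferon-induced GTPases were followed in follicular (FO) B cells of the mouse spleen: Gbp2, Gbp3, Gbp4, Gbp7 and Gbp9 of the guanylate-binding protein (GBP) family, and Irgm1, Irgm2, Igtp, Iigp1 and Ifi47 of the immunity-related GTPase (IRG) family. They were taken by gene symbol from a table of 22561 genes, in which each symbol stood for 1 row. FO B cells were sorted by FACS from wild-type C57BL6 mice of 10 weeks and sequenced in 4 groups of 3 samples each, with no genetic change in any group: Unstimulated, IFNα, CpG and CpG + IFNα, the stimulated groups after 12 h. IFNα was used at 0.1 μg/mL and CpG alone at 1 μg/mL. The sources differ on the CpG concentration in CpG + IFNα, so that between the groups with CpG a dose difference and the effect of IFNα cannot be told apart. CpG is an oligodeoxynucleotide that engages Toll-like receptor 9 (TLR9), and IFNα belongs to the type I interferons. It is not given in the sources used here whether unstimulated cells spent the same time in culture, so that in any comparison with them the stimulus and the culture cannot be told apart. Nor is it given whether replicates came from separate mice, and p-values then measure only the spread between these samples.

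GBP and IRG proteins are GTPases that cells make in large amounts on exposure to interferon. They settle on the vacuoles of intracellular parasites and bacteria, break those membranes open, and so expose the microbe to ubiquitin and to sensors of the cytosol. Within the IRG family, Irgm1, Irgm2 and Igtp (also called Irgm3) act as regulators that sit on the cell's own membranes and hold the effectors, such as Iigp1 (Irga6) and Ifi47 (Irgd), inactive there. Type I interferon acts through its receptor and the kinases JAK1 and TYK2 on transcription factors such as STAT2, which with IRF9 acts at the interferon-stimulated response element (ISRE) of target promoters. The gamma-activated sequence (GAS) is another element of interferon-induced promoters.

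The members lie in clusters on GRCm38 by GENCODE M21, and all 10 are annotated as protein-coding. On chromosome 3, Gbp7 (chr3:142530342-142550149), Gbp3 (chr3:142560026-142573209) and Gbp2 (chr3:142620602-142638008) follow one another on the plus strand. On chromosome 5, Gbp9 (chr5:105077630-105139539) and Gbp4 (chr5:105115767-105139586) overlap on the minus strand. On chromosome 11, Igtp (chr11:58199556-58207591) lies inside the annotated span of Irgm2 (chr11:58199618-58222782) but for its first bases, Ifi47 is at chr11:49076587-49096974, all 3 on the plus strand, and Irgm1 is at chr11:48861968-48871683 on the minus strand. Iigp1 lies apart from these clusters.

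RefSeq promoter windows on GRCm38.p6, from 250 bases before to 50 bases after a start site, were given for 7 of the 10 members in 8 windows, with 2 windows for Gbp3 and none for Gbp4, Gbp9 and Iigp1. The ISRE-like letters GAAANNGAA, read on both strands, were in the windows of 6 of these 7 genes and in 8.56% of all 32851 windows. The GAS-like letters TTCNNNGAA were in those of 3 genes (Gbp7, Igtp and Irgm2) against 8.3% of all windows, and the NF-κB-like letters GGNNTTTCC in none against 5.82%. The stretches that hold the matches are shown because the members moved together under IFNα, with capitals for ISRE-like and GAS-like matches, which overlap one another in Gbp3 and in Irgm1:
Gbp7 (chr3:142530218-142530304, plus strand): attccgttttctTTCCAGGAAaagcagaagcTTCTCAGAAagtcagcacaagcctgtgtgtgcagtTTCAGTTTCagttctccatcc
Gbp3 (chr3:142559988-142560026, plus strand): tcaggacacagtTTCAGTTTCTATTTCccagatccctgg
Gbp2 (chr3:142620593-142620625, plus strand): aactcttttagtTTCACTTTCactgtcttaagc
Irgm1 (chr11:48871424-48871462, minus strand): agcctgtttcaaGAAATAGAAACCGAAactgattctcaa
Igtp (chr11:58199499-58199542, plus strand): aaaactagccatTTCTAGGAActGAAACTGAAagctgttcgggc
Irgm2 (chr11:58214890-58214933, plus strand): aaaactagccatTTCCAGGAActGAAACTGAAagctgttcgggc
The first ISRE-like base lay from 24 to 64 bases before the start site in these 6 genes. It was read on the plus strand of the gene in Irgm1, Igtp and Irgm2, and on the opposite strand in Gbp7, Gbp3 and Gbp2. Over the 44 bases shown, Igtp and Irgm2 were the same at 43 and differed at 1, which lies inside the GAS-like match. The window of Ifi47, the member with the highest level under IFNα, held no exact match to any of the 3 motifs, which says only that these letters were not in that window. A match is a run of letters and was not tested for binding.

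Counts were unique molecular identifiers (UMIs) at the 3′ end of transcripts, so that levels do not grow with transcript length. Whether they are otherwise comparable between genes, as the family shares and the order of members assume, was not tested. Levels are given as CPM, which are counts scaled to the summed counts of the tested genes and by TMM factors. Sample totals were between 922450 and 2923865 counts, with medians of 1098670 in Unstimulated, 1351378 in IFNα, 1645907 in CpG and 1900101 in CpG + IFNα. All 11 markers of B cells had counts in every group, with summed levels of 32950 to 35479 CPM in Unstimulated, 26297 to 30826 in IFNα, 7049 to 7498 in CpG and 6326 to 6407 in CpG + IFNα. T cell markers summed to 51.9 CPM at most, and Cd3g and Cd8a were at 0 in every sample. Myeloid markers summed to 597 to 792 CPM in IFNα and to 57.8 CPM at most elsewhere. In the IFNα samples that sum was mostly Ly6c2 (587 to 775 CPM), and the only other myeloid markers with counts there were Adgre1 and Cd68. Adgre1 was at 8.07, 6.69 and 13.0 CPM in IFNα against 0.910, 3.21 and 0.882 in Unstimulated, without overlap, and Cd68 at 0 to 4.58 against 4.55 to 12.8. Erythroid markers, mostly haemoglobin genes, summed to 57.4 to 345 CPM in Unstimulated, 15.3 to 336 in IFNα, 4.99 to 60.8 in CpG and 5.65 to 72.0 in CpG + IFNα. The list of marginal zone B cells was likewise highest in IFNα (2239 to 2392 CPM), of which Plac8 made up 2149 to 2268. The part of other cells in the levels of the GTPases was not tested. In bulk samples, fewer cells of a type and less RNA per cell cannot be told apart.

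The 10 GTPases together were highest in IFNα, lower in CpG + IFNα, lower again in Unstimulated and lowest in CpG, and the samples of no 2 groups overlapped. Their summed level was 311 ± 50.2 CPM in Unstimulated (SD, n = 3; 279, 285 and 369), 2487 ± 389 in IFNα (2058, 2585 and 2817), 118 ± 8.81 in CpG (108, 122 and 123) and 718 ± 19.5 in CpG + IFNα (696, 728 and 730). As a share of all counts, they took 0.0279 to 0.0379% in Unstimulated and 0.200 to 0.262% in IFNα, against 0.0108 to 0.0123% in CpG and 0.0689 to 0.0746% in CpG + IFNα.

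The balance between the families differed with IFNα. GBP transcripts were 56.9 ± 1.53% of the members' summed CPM in Unstimulated and 59.6 ± 2.74% in CpG (SD, n = 3), but 31.9 ± 2.56% in IFNα and 25.8 ± 3.74% in CpG + IFNα. The lowest share without IFNα was 55.7% and the highest share with IFNα was 34.8%, so the samples did not overlap, and no test was run on the shares. The share of Gbp3 went from 31.1 to 33.3% of the sum in CpG to 3.06 to 3.47% in CpG + IFNα.

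**Figure D1:**
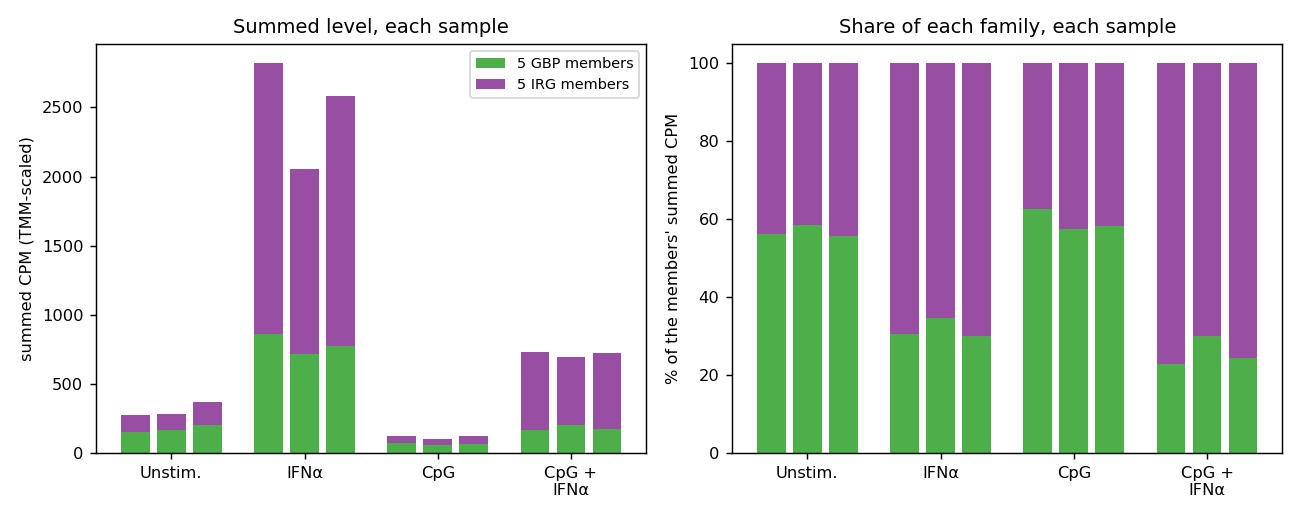
Summed CPM of the 5 GBP and 5 IRG members (left) and the share of each family in that sum (right, %), with 1 bar for each of the 3 samples of a group. The sum was 2058 to 2817 CPM in the IFNα samples and 108 to 123 in the CpG samples, and the GBP share was 55.7% or more in every sample without IFNα and 34.8% or less in every sample with it.

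The order of the members changed with the stimulus. In Unstimulated, means fell from 57.7 CPM for Ifi47 to 11.6 for Irgm2, each member overlapping the next in its samples, with Iigp1 apart at 0.588. In IFNα, Ifi47 (825 CPM) and Irgm1 (525) overlapped each other and lay above Gbp9 (228), Igtp (213) and Gbp7 (203), which overlapped in turn. Below these came Gbp4 (151), then Irgm2 (117), Gbp3 (106) and Gbp2 (97.9), which overlapped, and Iigp1 (19.9) again stood apart as the lowest. In CpG, Gbp3 was first (37.7 CPM) and did not overlap Ifi47 (21.4), which did not overlap Irgm1 (16.1). In CpG + IFNα, Ifi47 (244 CPM) and Irgm1 (190.5) were again first, without overlap between them or with Igtp (73.0), and Gbp3 was seventh of 10 at 23.6 CPM.

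**Figure D2:**
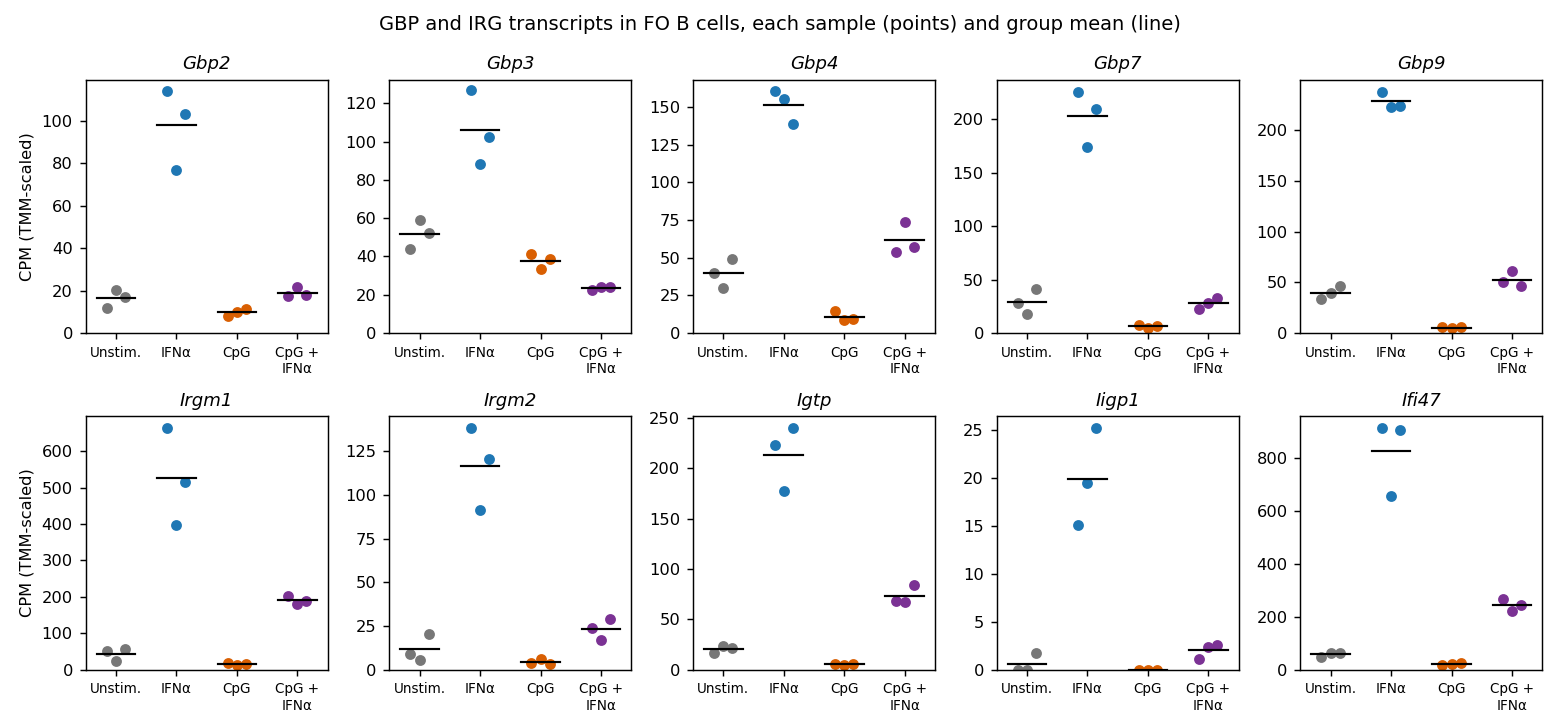
Level of each member (CPM after TMM scaling, each panel with its own axis from 0) in the 3 samples of each of the 4 groups, with points for samples and a line for the group mean. In every panel the 3 IFNα samples are the highest, and Gbp3 is the member whose CpG + IFNα samples (22.4 to 24.2 CPM) lie below its CpG samples (33.5 to 41.1 CPM).

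IFNα alone against unstimulated cells asks how strongly type I interferon raises these genes in resting FO B cells. All 10 members, and so all 9 other than Iigp1, rose by edgeR's quasi-likelihood test with a Benjamini-Hochberg adjusted p under 0.1 over 9431 genes and a fold change over 2, and in each the IFNα samples lay above all unstimulated samples. Of all genes tested, 4.56% rose by this rule, and in 16.4% the IFNα samples lay above all unstimulated samples. The median log2 fold change of the 9 members other than Iigp1 was 2.75 (1.02 to 3.84), beside a median of 0.00 over all genes. Iigp1 passed the filter on low counts only through the IFNα samples, and its values are given as counts below. Irgm2 passed that filter only with the help of samples that had received IFNα, since 2 unstimulated and 0 CpG samples were over the cut. Irgm2 is kept among the 9, and its values and calls are a description.

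The IRG members other than Iigp1 and Irgm2 rose by log2 fold changes of 3.39 to 3.84, all above those of the GBP members (1.02 to 2.75). Ifi47, an IRG effector, was at 46.4, 64.2 and 62.7 CPM in Unstimulated and at 912, 657 and 906 CPM in IFNα. This was a log2 fold change of 3.84 (SE 0.153, edgeR adjusted p = 4.71e-20), or 14.3-fold. Irgm1, the regulator required for control of several vacuolar pathogens, went from 50.0, 24.6 and 57.4 CPM to 663, 396 and 516 CPM, 11.6-fold (log2 3.54, SE 0.186, edgeR adjusted p = 6.99e-17). The other regulators rose 10.5-fold (Igtp, log2 3.39, SE 0.177) and 9.57-fold (Irgm2, log2 3.26, SE 0.265). The value of Irgm2 is a description, as it passed the filter only with the help of samples that had received IFNα.

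Among the GBPs, the largest log2 fold change was that of Gbp7 at 2.75 (SE 0.185), from 28.2, 18.2 and 41.5 CPM to 226, 174 and 209.9 CPM. Gbp2, which coats parasite vacuoles through a lipid tail, rose 5.96-fold (log2 2.57, SE 0.214), Gbp9 5.72-fold (log2 2.52, SE 0.146) and Gbp4 3.75-fold (log2 1.91, SE 0.171). Gbp3 moved least, from 43.7, 58.8 and 52.1 CPM to 127, 88.2 and 102 CPM. Its log2 fold change of 1.02 (SE 0.162, edgeR adjusted p = 1.01e-05) was just over the line of 1, and it fell under that line without unstimulated replicate 1 (0.92) and without IFNα replicate 1 (0.89), as well as with library size scaling alone (0.94).

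Iigp1, the effector Irga6, was close to the limit of detection outside the IFNα group. Its counts were 0, 0 and 2 in Unstimulated, 15, 32 and 33 in IFNα, 0, 0 and 0 in CpG, and 2, 7 and 5 in CpG + IFNα. Scaled to depth, IFNα stood 32.1-fold above Unstimulated, with an exact 95% interval of the count ratio from 8.60 to 270. These intervals and the floors cover counting error only. A count of 0 in all CpG samples allows up to 3 counts in that group, and against this floor CpG + IFNα was at least 3.52-fold higher.

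CpG alone against unstimulated cells shows the same genes under TLR9 stimulation without added interferon. Of the 10 members, 8 fell by the same rule in edgeR (7 of the 9 other than Iigp1) and 7 in DESeq2, while 25.5% of all genes tested fell and 20.1% rose. In 8 members the CpG samples lay below all unstimulated samples, as they did in 37.1% of all genes tested. The median log2 fold change of the 9 members other than Iigp1 was −1.46 (−2.87 to −0.44), beside −0.03 over all genes. This comparison uses the same unstimulated samples as the one with IFNα. In a fit of the CpG and unstimulated samples alone, 8 members were tested and 6 were called lower.

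Gbp9 fell most among the members with counts in every sample, from 33.7, 39.6 and 45.9 CPM to 5.53, 4.99 and 5.49 CPM (log2 −2.87, SE 0.256, edgeR adjusted p = 8.61e-12). Gbp7 fell to 22.2% of its unstimulated level (log2 −2.17, SE 0.306) and Gbp4 to 27.3% (log2 −1.87, SE 0.248). Gbp3 and Gbp2 were lower by less than 2-fold: Gbp3 had a log2 fold change of −0.44 (SE 0.180, edgeR adjusted p = 0.0304) and Gbp2 of −0.70 (SE 0.303, edgeR adjusted p = 0.0393), neither past the rule although their samples did not overlap.

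In the IRG family, Igtp fell to 27.8% (log2 −1.85, SE 0.313), Irgm1 to 36.4% (log2 −1.46, SE 0.270) and Ifi47 to 37.6% (log2 −1.41, SE 0.209). Irgm2 was at 9.10, 5.35 and 20.3 CPM in Unstimulated and at 3.68, 6.42 and 3.49 CPM in CpG, and these samples overlapped. Its call (log2 −1.43, SE 0.460, edgeR adjusted p = 0.00604) rested on unstimulated replicate 3, without which the log2 fold change was −0.76 with an adjusted p of 0.215. The call of Iigp1 (edgeR adjusted p = 0.0977) rested on the 2 counts of that same replicate, and no fold is given because both groups were at or under 3 counts. It was lost in 9 of 12 fits that left out 1 sample, unstimulated replicate 3, any IFNα or CpG sample, or CpG + IFNα replicate 2 or 3, and also with DESeq2, without the filter and in thinned counts.

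CpG + IFNα against CpG asks what interferon adds to TLR9-stimulated cells, with both groups at the same time. Here 8 of 10 members rose in edgeR, or 7 of the 9 other than Iigp1, against 2.95% of all genes tested that rose. Irgm2 is among these 7, and it passed the filter only with the help of samples that had received IFNα. The call of Iigp1, with no counts in CpG, was lost in counts thinned to the smallest total (edgeR adjusted p = 0.196). The median log2 fold change was 2.50 over the 9 members other than Iigp1 (−0.68 to 3.69) and 2.43 with Iigp1 at its bound, beside −0.04 over all genes. Samples did not overlap in any member: 9 were higher with IFNα and 1, Gbp3, was lower, against 11.5% of all genes tested whose samples were higher without overlap and 16.7% lower.

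Igtp had the largest log2 fold change of the members with counts in CpG, 3.69 (SE 0.223, edgeR adjusted p = 4.77e-15). It went from 5.53, 4.99 and 5.99 CPM in CpG to 68.2, 66.9 and 83.8 CPM in CpG + IFNα. Irgm1 was 11.6-fold higher (203, 179 and 189 CPM against 17.2, 14.3 and 17.0) and Ifi47 11.3-fold higher (267, 221 and 245 CPM against 19.6, 19.96 and 24.5). Gbp9 rose 9.83-fold (log2 3.30, SE 0.221), Gbp4 5.67-fold (log2 2.50, SE 0.210), Irgm2 5.13-fold (log2 2.36, SE 0.355) and Gbp7 4.23-fold (log2 2.08, SE 0.277).

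The 2 members not called here were Gbp2 and Gbp3. Gbp2 was at 7.98, 9.98 and 11.5 CPM in CpG and at 17.5, 21.7 and 18.0 CPM in CpG + IFNα, a log2 fold change of 0.96 (SE 0.254, edgeR adjusted p = 0.00896). It was under the line of 1 by little, and it passed without CpG replicate 3 (1.11), without CpG + IFNα replicate 1 (1.02) or without CpG + IFNα replicate 3 (1.001). Gbp3 went the other way, from 41.1, 33.5 and 38.4 CPM in CpG to 22.4, 24.1 and 24.2 CPM in CpG + IFNα, with a log2 fold change of −0.68 (SE 0.180, edgeR adjusted p = 0.00942).

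Whether interferon raised a member by the same factor in both settings was tested by the interaction, the log2 fold change of CpG + IFNα against CpG less that of IFNα against Unstimulated. It was called for 2 of 10 members, both lower: Gbp3 (−1.70 on the log2 scale, SE 0.243, edgeR adjusted p = 8.91e-06) and Gbp2 (−1.62, SE 0.356, edgeR adjusted p = 0.0025). Over all genes tested, 3.17% were called lower and 3.09% higher. For Irgm1 the estimate was 0.00 (SE 0.310), for Igtp 0.30 (SE 0.349), for Ifi47 −0.34 (SE 0.245), for Gbp4 0.60 (SE 0.292), for Gbp7 −0.67 (SE 0.375) and for Irgm2 −0.90 (SE 0.525). For Gbp9 it was 0.78 (SE 0.307, edgeR adjusted p = 0.103). With these errors, a difference between the settings of about 2-fold was not excluded for Gbp4, Gbp7, Gbp9, Igtp or Irgm2. At an unadjusted p under 0.05 in edgeR, 2 members were higher (Gbp4 and Gbp9) and 2 lower (Gbp2 and Gbp3). No interaction is given for Iigp1, whose counts were 0 in CpG.

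**Figure D3:**
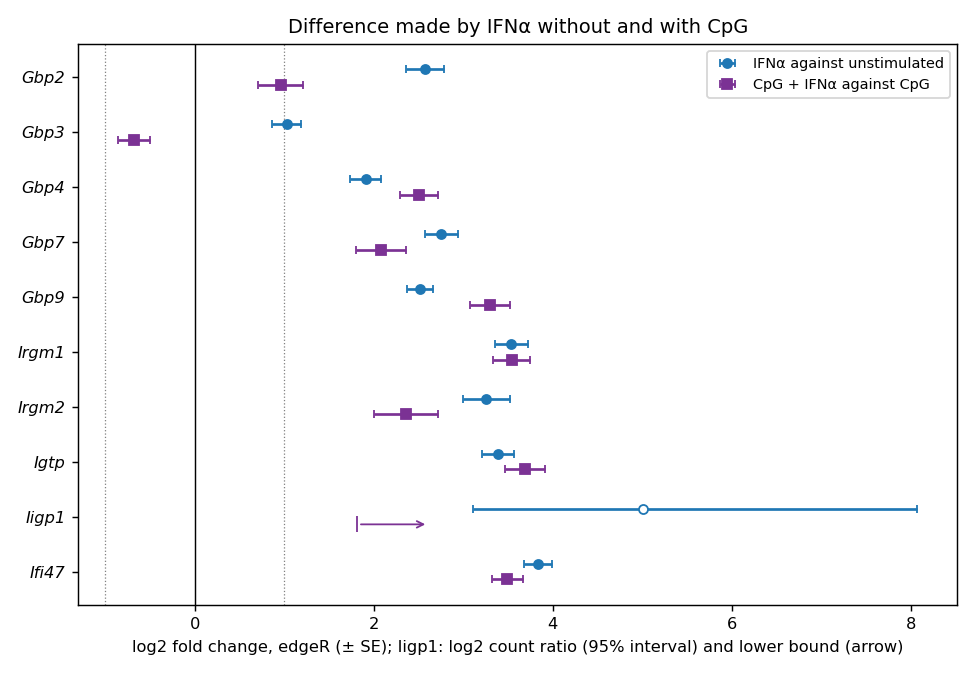
The log2 fold change of each member (edgeR estimate, bars for ± SE, dotted lines at a fold change of 2) for IFNα against unstimulated (circles) and CpG + IFNα against CpG (squares), with Iigp1 shown as the count ratio and its 95% interval (open circle) and as a lower bound (arrow). The paired symbols lie close to each other for Irgm1, Igtp and Ifi47, while Gbp3 goes from 1.02 to −0.68 and Gbp2 from 2.57 to 0.96.

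CpG + IFNα against IFNα shows the level that the members reached when CpG was present too. All 10 were called lower and their samples did not overlap, whereas 25.5% of all genes tested fell by the rule and 37.4% were lower without overlap. The median log2 fold change of the 9 members other than Iigp1 was −2.09 (−2.85 to −1.28), beside −0.07 over all genes. Among the 9 members other than Iigp1, Gbp7 kept the smallest share of its IFNα level, 13.9% (22.9, 27.9 and 32.9 CPM against 226, 174 and 209.9, edgeR adjusted p = 1.55e-16). Gbp4 kept the largest, 41.2% (54.0, 73.5 and 57.0 CPM against 160.4, 155 and 139, edgeR adjusted p = 1.73e-09). Between them lay Irgm1 with 36.5%, Igtp with 34.2%, Ifi47 with 29.6%, Gbp9 with 23.5%, Gbp3 with 22.7%, Gbp2 with 20.1% and Irgm2 with 19.9%. By counts, Iigp1 was 9.67-fold higher in IFNα than in CpG + IFNα (95% interval from 5.44 to 18.5).

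CpG + IFNα against unstimulated cells gives the net outcome of both stimuli. In edgeR, 3 members rose and 1 fell, where 20.3% of all genes tested rose and 25.6% fell. The IRGs Irgm2 and Iigp1 were not called, and no test compared the families. The 3 that rose were Irgm1 (log2 2.08, SE 0.192, edgeR adjusted p = 1.87e-11), Ifi47 (log2 2.08, SE 0.156, edgeR adjusted p = 1.22e-13) and Igtp (log2 1.84, SE 0.193, edgeR adjusted p = 3.49e-10). Ifi47 and Irgm1 were thus 4.23-fold above their unstimulated level. The member that fell was Gbp3, to 46.2% (log2 −1.12, SE 0.186, edgeR adjusted p = 2.86e-06), although its estimate was −0.998 without unstimulated replicate 2, on the other side of the line.

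The other GBPs were within 2-fold of Unstimulated. Gbp4 (log2 0.63, SE 0.180) and Gbp9 (0.42, SE 0.163) lay above all unstimulated samples by less than 2-fold, and Gbp2 (0.26, SE 0.257) and Gbp7 (−0.09, SE 0.224) overlapped them. Irgm2 was 1.90-fold higher (log2 0.93, SE 0.321), with 24.0, 16.9 and 29.3 CPM against 9.10, 5.35 and 20.3. It passed the line without unstimulated replicate 3 (1.64) and without CpG + IFNα replicate 2 (1.18). The count ratio of Iigp1 was 3.32 (95% interval from 0.763 to 30.1), and its call, absent here, was made without unstimulated replicate 3 and without CpG + IFNα replicate 1.

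Further genes of both families were followed too. Of 19 further GBP and IRG genes on a list, 14 were in the table and 9 were tested. Of these 9, 7 passed the filter on low counts only through samples that had received IFNα, so that the counts of calls below are a description. Of all genes tested, 4.56% rose in IFNα and 25.5% fell in CpG by the rule. In CpG + IFNα, 2.95% rose against CpG and 25.5% fell against IFNα. In IFNα 8 of the 9 were called higher, and Gbp5, at 17.3, 14.97 and 15.9 CPM against 30.3, 26.8 and 30.5 CPM, was not called. Gm12250 had 0, 2 and 2 counts in Unstimulated and 140, 157 and 151 in IFNα. Gm5431 had 2 counts in all of Unstimulated and 199 in IFNα, a count ratio of 79.9 scaled to depth (exact 95% interval from 21.8 to 664). The effector Tgtp1 had 3 and 121 counts, a ratio of 32.4 (10.8 to 159), and Tgtp2, which shares most of its sequence, had 2, 1 and 4 counts against 69, 75 and 54. In CpG 7 of 9 were called lower, and in CpG + IFNα against CpG 6 of 9 were called higher. Among them, Gbp6 had 1 count in all of CpG and 63 in CpG + IFNα, a ratio of 47.5 (8.22 to 1906). All 9 were lower in CpG + IFNα than in IFNα. The interaction was called lower for Gm12250 (−2.11, SE 0.806), with few counts in Unstimulated and CpG and no call in DESeq2 (adjusted p = 0.150), and higher for 9930111J21Rik2 (1.77, SE 0.524).

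The 6 tested giant and dynamin-like GTPases (of 10 listed) are given as a description, since 4 of them passed the filter on low counts only with the help of samples that had received IFNα. Of all genes tested, 4.56% rose in IFNα, 25.5% fell in CpG and 2.95% rose in CpG + IFNα against CpG. All 6 were called higher in IFNα, lower in CpG and higher in CpG + IFNα against CpG, and 0 had a called interaction in edgeR, where 1 was higher and 1 lower at an unadjusted p under 0.05, or in DESeq2. The antiviral GTPases Mx1 and Mx2 were the 2 that also stood above Unstimulated in CpG + IFNα, by log2 fold changes of 3.31 (SE 0.245) and 2.45 (SE 0.285).

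The pathway upstream of these genes is described from a list of 13 interferon receptors, kinases and transcription factors, all tested. In IFNα 3 rose, against 4.56% of all genes tested. Among them were Stat2 (log2 2.78, SE 0.139) and Irf9 (1.78, SE 0.132), which act together at the ISRE. In CpG 10 of 13 fell, against 25.5% of all genes tested, with a median of −1.46 over the list beside −0.03 over all genes. Irf1, a transcription factor that acts at the same promoter elements, fell most (log2 −4.91, SE 0.276), from 82.8, 93.1 and 135 CPM to 6.14, 1.43 and 2.50 CPM. Stat2 (−3.49, SE 0.242) and the kinase Jak2 (−2.69, SE 0.239) followed.

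With IFNα added to CpG, 4 of the 13 rose, against 2.95% of all genes tested. Among them were Stat2 (log2 3.33, SE 0.228), Irf1 (2.77, SE 0.335) and Irf9 (2.21, SE 0.143). Irf1, then at 22.9, 26.2 and 20.6 CPM, stayed below Unstimulated. Of the receptor subunits, Ifnar1 fell in CpG (log2 −1.33, SE 0.226) and Ifnar2 was at 23.5 to 24.6 CPM there against 23.8 to 26.4 in Unstimulated. The interaction was called higher for Irf1 (2.01, SE 0.390) and, in edgeR but not in DESeq2 (adjusted p = 0.119), for Jak2 (1.04, SE 0.339). Among 9 tested negative regulators of the pathway, Usp18 (log2 4.81, SE 0.201) and Socs1 (2.09, SE 0.253) rose and Socs3 fell (−3.86, SE 0.473) in IFNα, and Usp18 (5.13, SE 0.208) and Socs1 (3.19, SE 0.269) rose in CpG + IFNα against CpG. Of 19 listed interferon genes, 3 were in the table and none had enough counts to be tested.

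**Figure D4:**
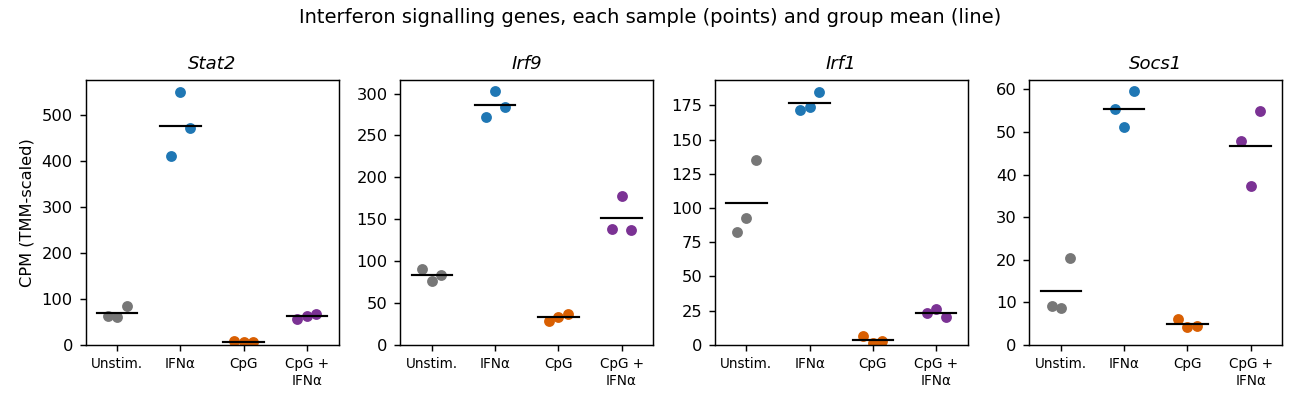
Level (CPM after TMM scaling, each axis from 0) of 3 transcription factors of the interferon pathway and of its inhibitor Socs1 in the 3 samples of each group, with points for samples and a line for the mean. Stat2, Irf9 and Irf1 are highest in IFNα and lowest in CpG, and the CpG + IFNα samples of Irf1 (20.6 to 26.2 CPM) lie below its unstimulated samples (82.8 to 135 CPM).

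Over the 12 samples, the gene outside the members whose log2(CPM + 1) was most like the mean standardised profile of the 10 members was Slfn5 (Pearson's r = 0.994), followed by Pkib (0.992), Slfn2 (0.992), Ifit3b (0.990) and Tor1aip1 (0.989). Taken singly, Igtp was nearest to Herc6 (0.995), Ifi47 to Nmi (0.994), Irgm1 to Oas3 (0.992), Gbp4 to Gbp6 (0.992), Gbp7 to Ankfy1 (0.988), Gbp2 to Pkib (0.982), Irgm2 to Ifit2 (0.981), Iigp1 to 9330175E14Rik (0.978) and Gbp3 to Dpp4 (0.964). These points share libraries and fall into 4 groups, so that r describes the group means more than the samples. With Spearman's correlation, 0 of the 5 genes nearest to the mean profile were among these 5.

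Reads of related genes could be assigned to the wrong member. In the last 500 bases of each member's protein-coding transcripts in GENCODE M21, the share of 81-base stretches that also occur in transcripts of other genes was 9.61% for Gbp4 (Gbp6, Gbp9, Gbp11 and Gm43302), 2.43% for Ifi47 (Olfr56), 1.11% for Gbp3 (Gbp7), 0.357% for Gbp9, and 0% for the other 6. The levels of Gbp4 and Gbp9, whose spans overlap on 1 strand, and of Igtp and Irgm2 are uncertain to the extent that reads from shared exons were left out or split.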

How the data were processed

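UMI counts per gene were deposited by the authors without normalization, for 12 samples in 4 groups of 3. Per the labels' processing notes and the study's methods, the authors made them from BRB-seq reads with UMI-tools 1.1.2, Trim Galore 0.6.7, HISAT2 2.2.1 and featureCounts 2.0.1 on GRCm38, with Tlr9 extended by 3 kb. The release of their annotation is not given in the sources used here. All 22561 identifiers are in GENCODE M21, which gave positions.

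TMM factors were computed with edgeR 4.0.16 (R 4.3.3), filterByExpr by group kept 9431 genes, and the quasi-likelihood test was fitted to all samples together (8 residual degrees of freedom). The call rule asked for a log2 fold change beyond 1 in either direction, with p adjusted by Benjamini-Hochberg below 0.1. Standard errors come from unshrunken coefficients. A group at 0 was set to a floor of 3 counts over the group. Depth was 922450 to 2923865 counts per sample, which limits Iigp1 most. In all 12 replicate pairs the counts differed beyond sampling noise, with chi-square over its degrees of freedom at 1.90 to 6.31.

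Members and the 9 gene lists were chosen with earlier results of these data known. Named genes were all members, up to 4 called genes per list and comparison with the largest fold change, the 5 genes most like the mean profile and the nearest gene of each member. Gbp5, Ifnar1, Ifnar2, Gm5431 and the marker genes are named beyond this rule or after their values were seen. Alternatives were RLE factors, library size, other filters and thresholds, DESeq2 1.42.0, glmTreat, fits of the compared groups, thinned counts, a replicate block and each sample left out. Protein sequences were not analysed here, and 1 gene of the signalling list is not reported here by name.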

Additional observations from a re-analysis of the deposited data

Results flagged for a closer look

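The effect of IFNα differed with and without CpG, by the interaction term in edgeR, for 2 members: Gbp3 (log2 −1.70, adjusted p = 8.91e-06) and Gbp2 (−1.62, adjusted p = 0.0025). It also differed for 8 genes of the related lists. Among other IRG genes the interaction was −2.11 for Gm12250 (adjusted p = 0.0911) and 1.77 for 9930111J21Rik2 (adjusted p = 0.0249). In the signalling lists it was 1.04 for Jak2 (adjusted p = 0.0488), 2.01 for Irf1 (adjusted p = 0.000567), 1.11 for Socs1 (adjusted p = 0.0971) and 3.06 for Socs3 (adjusted p = 0.00845). It was −1.48 for Atg10 (adjusted p = 0.0717), a conjugation enzyme of autophagy, and −1.07 for Casp1 (adjusted p = 0.00525), the inflammasome protease. DESeq2 called 6 of these 10 and did not call Gm12250 (adjusted p = 0.150), Jak2 (0.119), Socs1 (0.161) and Atg10 (0.232). With 3 samples a group, no sample was tested for standing apart.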

How the results depend on the processing

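Over 24 alternatives, 1369 of 1420 recomputed log2 fold changes of members kept their side of the call rule, 41 lost the call and 10 gained it. With a call in either fit, 0 changed direction. A change of direction in a member called in neither fit was not counted. With a log2 fold change over 2 in size, the genes called were 251 (IFNα against unstimulated), 1677 (CpG against unstimulated), 1826 (CpG + IFNα against unstimulated), 165 (CpG + IFNα against CpG), 1698 (CpG + IFNα against IFNα) and 155 (interaction), against 814, 4303, 4329, 468, 4175 and 590 by the rule used. The members called were then 3 in CpG, 2 in CpG + IFNα, 6 in CpG + IFNα against IFNα and 0 in the interaction, since Gbp2 and Gbp3 lie under 2 in size. With the fold change of 2 in the test itself, 324 genes were called in IFNα, 195 in CpG + IFNα against CpG, and 98 genes and 1 member (Gbp3) in the interaction. A stricter filter left 7312 genes, 9 members and 539 calls in IFNα. DESeq2 called 10, 7, 4, 8, 10 and 2 members in the order above. Leaving out 1 sample gave 9 to 10 members called in IFNα, 6 to 8 in CpG, 3 to 6 in CpG + IFNα, 8 to 9 in CpG + IFNα against CpG, 10 in CpG + IFNα against IFNα and 2 in the interaction. Without ribosomal RNA and mitochondrial genes, an alternative chosen after seeing the data, the interaction had 342 calls higher and 234 lower, against 291 and 299. The ISRE-like motif with 1 mismatch was in the windows of 7 of 7 members and in 65.5% of all windows.

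Whether equal replicate numbers mark a shared preparation is not given in the labels, although the deposited barcode list numbers the libraries alike. The r of the deviations of same-numbered samples ran from −0.065 to 0.205 over 18 pairs, with 5 over 0.1. Not every sample correlated best with its own number: 10 of 18 pairs did, and 8 of the 9 pairs among the stimulated groups (r from 0.009 to 0.205). Hbb-bs was highest in replicate 1 and lowest in replicate 3 of every group (220, 101 and 31.8 CPM in Unstimulated, 40.4, 10.7 and 1.03 in CpG + IFNα). These are hints from the data of a shared source, and the numbers were not used as pairs because they did not meet the rule of r over 0.1 in every pair. With the replicate block, 10, 8, 4, 8, 10 and 2 members were called, and 820, 4305, 4346, 472, 4175 and 627 genes.

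Depth limits Iigp1 and, in CpG, Irgm2, Gbp9, Igtp and Gbp7, whose samples there held 6 to 13 counts.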

Other observations

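Genes that work with GBP and IRG proteins at the vacuole were followed by 4 lists. In CpG, 25.5% of all genes tested fell and 20.1% rose, and the shares of these lists that fell or rose there are a description beside that. Of 11 tested genes of LC3 and GABARAP conjugation, 0 were called in IFNα by edgeR (2 higher and 2 lower at an unadjusted p under 0.05) or DESeq2, and in CpG 3 fell (Map1lc3a by a log2 fold change of −3.66, Map1lc3b −1.86 and Gabarap −1.17) and 1 rose (Gabarapl1, 1.38). Of 7 tested ubiquitin ligases and adaptors, Trim21 rose in IFNα (log2 1.54, SE 0.230) and in CpG + IFNα against CpG (2.07, SE 0.288), while Calcoco1 (−3.49, SE 0.503) and Trim21 (−1.80, SE 0.336) fell in CpG. Of 6 tested inflammasome genes, Casp4, the caspase that senses bacterial lipopolysaccharide, rose in IFNα (log2 1.07, SE 0.165) and with IFNα added to CpG (1.74, SE 0.168). In CpG, Gsdmd, the pore protein that such caspases cut (log2 −2.07, SE 0.228), Casp4 (−1.05, SE 0.199) and Casp1 (−1.02, SE 0.183) fell. Of 8 tested genes of prenyl transfer and CAAX processing, which gives some GBPs their lipid tail, 0 were called in IFNα by edgeR (2 higher and 1 lower at an unadjusted p under 0.05) or DESeq2, while Rabggtb (log2 1.66, SE 0.131) and Pggt1b (1.03, SE 0.281) rose in CpG by edgeR, and DESeq2 called 1 of the 8.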
